A study of Mus musculus with 20 samples.

Results

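Voltage-gated sodium channels open when the membrane of a neuron is depolarised and carry the inward sodium current that starts and conducts the action potential. Each channel is 1 large alpha subunit, which forms the pore, joined by smaller beta subunits that adjust gating, trafficking and adhesion. Sensory neurons of the dorsal root ganglia (DRG) are known for a mixture of channels that tetrodotoxin, a pufferfish toxin, blocks at low dose and channels that resist it. Nav1.8 and Nav1.9, encoded by Scn10a and Scn11a, are the resistant channels of small nociceptors.

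The genes described here were 9 subunit genes of sensory neurons. The 6 alpha subunit genes were Scn1a, Scn3a, Scn8a, Scn9a, Scn10a and Scn11a, and the 3 beta subunit genes were Scn2b, Scn3b and Scn4b. They were found by matching their symbols to the Ensembl identifiers of the expression table, which listed 37620 genes. All 9 had reads in each of the 20 libraries and passed the filter on low values, as did 14529 genes in all. The filter asked for a mean of at least 1 RPKM in at least 1 group, taken on the log2 scale. RPKM are reads scaled to exon length and library size.

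The study looked for transcripts that distinguish the sacral ganglia, which hold the sensory neurons of the pelvic organs, from the lumbar ganglia. Whole DRG were dissected from 10 C57Bl6 mouse embryos at E18.5, shortly before birth, 5 male and 5 female. A pair of RNA-seq libraries was made from each embryo, called a donor here. One came from ganglia L4-5 (lumbar) and the other from ganglia L6-S1, for which the name sacral is kept. Level and sex together defined 4 groups of 5 libraries, and the labels name no transgene or treatment in any of them. The whole ganglia contained neurons, glia and other cells, so fewer neurons of a type and less RNA per neuron cannot be told apart.

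The libraries held between 19606265 and 39678967 reads. The label of the tissue was checked against marker lists: all 12 pan-neuronal, all 10 nociceptor, all 8 large myelinated sensory neuron and all 9 Schwann cell and satellite glia markers passed the filter, whereas 1 of 7 spinal cord and motor neuron markers and 1 of 5 autonomic neuron markers did. Mnx1, a motor neuron marker, had at most 3 reads in any library. Markers of other tissues also passed the filter: all 6 of fibroblasts and meninges, 6 of 7 of skeletal muscle, 3 of 5 of cartilage and 3 of 4 of endothelium. The summed RPKM of the skeletal muscle list ranged from 18.94 to 266.8 in lumbar and from 17.81 to 187.9 in sacral libraries. The 2 mitochondrial rRNA genes took between 17.83% and 61.05% of the reads, and that share exceeded 40% in 5 libraries, which were both libraries of donors M5 and F7 and the lumbar library of donor F8.

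The alpha subunit genes differ at the codon that sets tetrodotoxin sensitivity, and these codons are shown for 5 of the 6 genes because they mark the classes used below. An aromatic residue in the pore loop of the first domain is known to allow toxin binding, and a serine in its place to give resistance. The 45 bases around this codon were read from the GENCODE M1 coding sequences of mm9, 5′ to 3′, with the codon in capitals.
Scn3a: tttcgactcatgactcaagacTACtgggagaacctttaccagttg
Scn8a: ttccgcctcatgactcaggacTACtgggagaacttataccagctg
Scn9a: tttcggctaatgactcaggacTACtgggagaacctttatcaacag
Scn10a: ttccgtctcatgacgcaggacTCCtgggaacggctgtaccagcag
Scn11a: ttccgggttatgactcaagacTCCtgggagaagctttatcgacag
The capitals encode tyrosine in Scn3a, Scn8a and Scn9a, and serine in Scn10a and Scn11a. The windows on chromosome 2 are at chr2:65359849-65359893 for Scn3a and chr2:66387037-66387081 for Scn9a, both on the minus strand. Scn8a has its window at chr15:100802048-100802092 on the plus strand. The windows of Scn10a, at chr9:119575484-119575528, and Scn11a, at chr9:119714777-119714821, are on the minus strand of chromosome 9.

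Over the aligned bases of the annotated coding sequences, gaps left out, identity was highest between Scn1a and Scn3a at 81.7%. It was lowest between Scn3a and Scn11a at 65.2%. Scn10a and Scn11a, the serine-codon genes, shared 66.4%, less than Scn10a and Scn8a at 70.0%. For Scn8a, whose annotation is split, this was the sequence of the large identifier alone. Identity matters for the counts, since the authors kept uniquely mapped reads. Of all 50-base windows in the transcripts, 5.33% in Scn1a, 6.41% in Scn3a and 5.14% in Scn9a were identical to a window of another sodium channel gene, against 2.1% in Scn10a and 0.0536% in Scn8a. No such window was found in Scn11a, Scn2b, Scn3b or Scn4b.

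In the annotation the genes lie in groups. Scn3a, Scn1a and Scn9a lie on chromosome 2 together with Scn2a1 and Scn7a, the gene of Scn1a spanning chr2:66108838-66278897. Scn10a (chr9:119517584-119603478) and Scn11a (chr9:119662881-119734574) are neighbours on chromosome 9. Scn2b (chr9:44925959-44938153) and Scn4b (chr9:44946520-44962235) also lie side by side, while Scn3b lies apart at chr9:40076801-40099203. Scn8a is split over 2 identifiers, and the values given here are those of the large one at chr15:100785829-100876360. The small one, upstream at chr15:100763860-100771229, had between 2 and 50 reads in a library and did not pass the filter. Transcripts on the opposite strand overlap Scn1a, Scn3a, Scn9a and Scn2b, and whether the counting used strand is not stated, so their reads cannot be told apart. The overlapping genes had few reads of their own, at most 18 over Scn1a, 10 over Scn3a and 4 over Scn2b, but Gm13629 over Scn9a had between 64 and 732.

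All 9 genes were expressed at E18.5, and Scn10a, Scn9a and Scn11a, the alpha genes of nociceptors, were the most abundant of the 6 alpha genes chosen. In lumbar ganglia the order of the means on the log2 RPKM scale was Scn10a at 5.84 ± 0.51 (SD, n = 10), Scn9a at 5.13 ± 0.57, Scn3b at 4.91 ± 0.50, Scn11a at 4.64 ± 0.52, Scn2b at 3.66 ± 0.58, Scn8a at 2.97 ± 0.52, Scn1a at 2.60 ± 0.57, Scn3a at 1.59 ± 0.35 and Scn4b at 1.01 ± 0.75. In linear terms these means correspond to 57.2 RPKM for Scn10a and 2.01 RPKM for Scn4b. The ranges of neighbours in this order overlapped in each case, yet within a library 6 of the 8 neighbouring pairs kept their order in all 10 lumbar libraries. The exceptions were Scn9a over Scn3b, which held in 7 of 10, and Scn3a over Scn4b, which held in 9 of 10.

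In sacral ganglia the order of the means was the same, from Scn10a at 5.52 ± 0.60 (SD, n = 10) down to Scn4b at 0.05 ± 1.01, but the gaps at the lower end changed. Scn1a at 1.89 ± 0.73 stood only 0.25 above Scn3a at 1.63 ± 0.45 on the log2 scale, compared with 1.01 in lumbar ganglia, and it exceeded Scn3a in 7 of 10 sacral libraries. The gap between Scn3a and Scn4b was 1.59, and here the ranges did not overlap. Scn9a over Scn3b held in 8 of 10 sacral libraries.

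**Figure D1:**
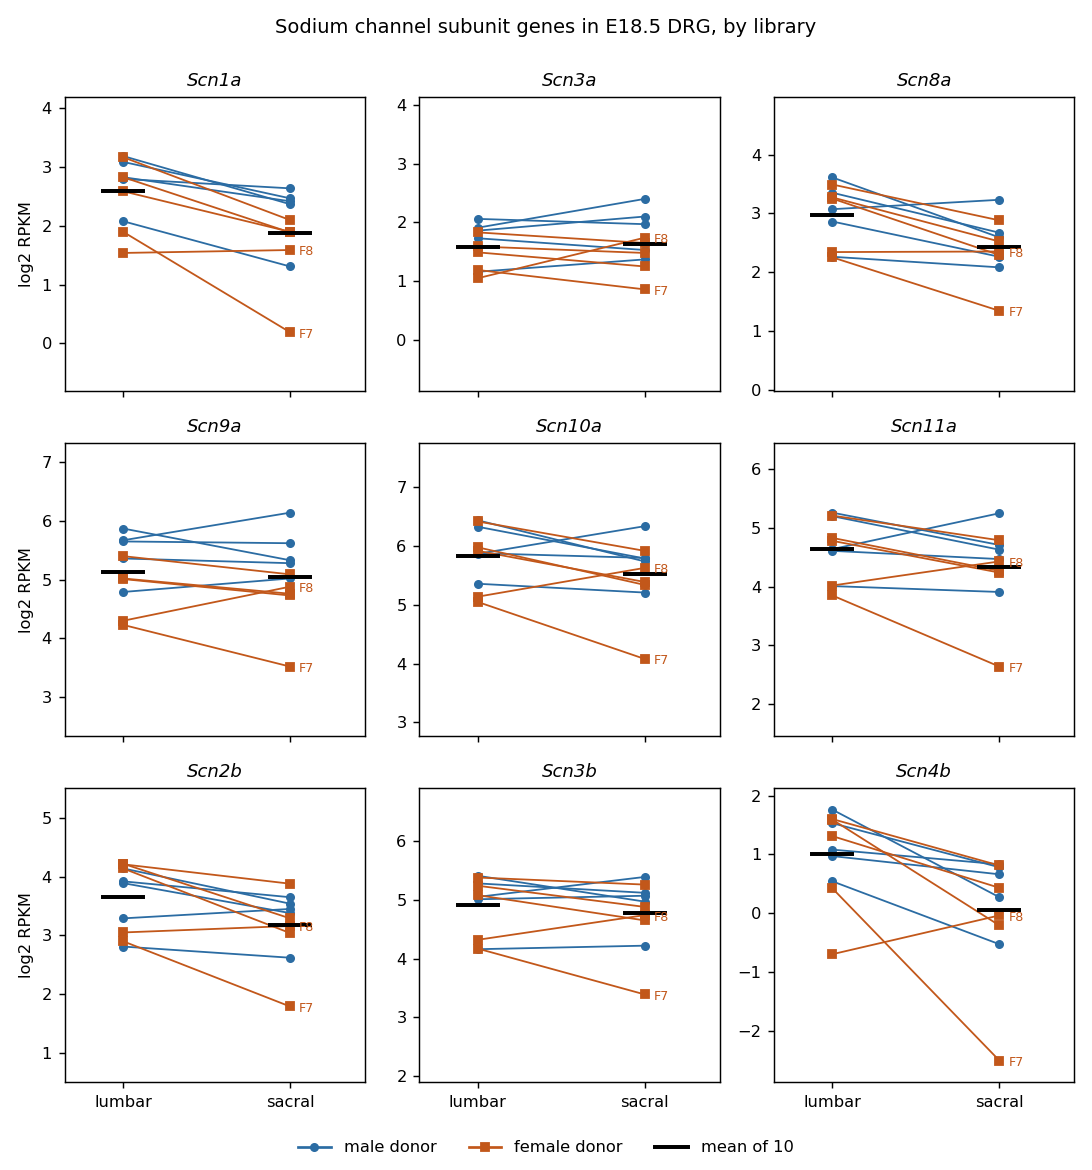
Log2 RPKM of the 9 subunit genes in each library, with the lumbar and sacral library of a donor joined by a line (circles, male; squares, female; bars, mean of 10 donors). Each vertical axis spans the same number of log2 units. Lines fall in 9 of 10 donors for Scn1a and Scn4b, and the sacral library of donor F7 is the lowest for each gene.

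The first comparison asked whether the genes differed between the levels, with the libraries of a donor treated as a block. Scn1a, which encodes Nav1.1, a channel of large myelinated sensory neurons and of mechanical nociceptors, fell in sacral ganglia to 61% of its lumbar level. Scn8a and Scn4b were also lower but did not pass the threshold, and the nociceptor channels Scn9a, Scn10a and Scn11a did not pass it either. Scn1a was thus the 1 of 9 members past an adjusted p of 0.05 (limma), as were 6.73% of the 14529 genes tested. In the lower direction alone that share was 4.03%.

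The values of Scn1a in lumbar males were 2.83, 3.09, 2.08, 2.80 and 3.19 log2 RPKM in donors M1, M3, M5, M7 and M8, and in the sacral libraries of these donors 2.42, 2.47, 1.31, 2.64 and 2.37. In females F3, F7, F8, F9 and F10 the lumbar values were 3.17, 1.90, 1.54, 2.59 and 2.83 and the sacral values 2.10, 0.19, 1.59, 1.90 and 1.89. The sacral library was lower in all 5 males and in 4 of 5 females, donor F8 being higher by 0.05, whereas the 10 lumbar and 10 sacral values overlapped in range. The mean difference, sacral minus lumbar, was -0.71 ± 0.19 (SE) on the log2 scale, with a 95% interval of -1.11 to -0.31 and an adjusted p of 0.0305 in limma with donor as a block. Between 292 and 3437 reads per library stood behind these values. The call was lost without the block (adjusted p = 0.178), without the filter (adjusted p = 0.0853) and, in turn, without donor M1, M3, M5, M8, F3, F7 or F10, where adjusted p ranged from 0.0565 to 0.0712 and the difference from -0.73 to -0.61.

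Scn8a encodes Nav1.6, the main channel of nodes of Ranvier. Its lumbar values ran from 2.25 to 3.61 log2 RPKM with a median of 3.16, and its sacral values from 1.34 to 3.23 with a median of 2.43. The sacral value was lower in 8 of 10 donors, although the ranges overlapped. The difference was -0.55 ± 0.17 (SE, limma), with a 95% interval of -0.90 to -0.21 and an adjusted p of 0.0503.

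Scn4b encodes the beta4 subunit, which is known for its part in the resurgent current of channels such as Nav1.6. It was the rarest member, with 118 to 500 reads in lumbar and 20 to 337 in sacral libraries. Lumbar males had 1.08, 1.76, 0.54, 0.97 and 1.53 log2 RPKM in donors M1, M3, M5, M7 and M8, against 0.83, 0.27, -0.53, 0.66 and 0.78 in sacral libraries. Lumbar females had 1.60, 0.42, -0.70, 1.31 and 1.59 in donors F3, F7, F8, F9 and F10, against 0.81, -2.51, -0.04, 0.43 and -0.21. The sacral value was lower in 9 of 10 donors, again with F8 as the exception, and the change ran from -2.93 in F7 to 0.66 in F8. The mean difference was the largest among the members at -0.96 ± 0.30 (SE, limma), with a 95% interval of -1.58 to -0.34 and an adjusted p of 0.0553.

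Scn1a and Scn4b were thus the 2 members that were lower in sacral ganglia in at least 9 of 10 donors, a count met by 7.41% of all tested genes. By unadjusted p under 0.05 there were 4 members (Scn1a, Scn8a, Scn4b and Scn2b), and 3501 of the 14529 genes.

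Scn2b encodes the beta2 subunit, which is linked to alpha subunits by a disulfide bond. It ranged from 2.81 to 4.22 log2 RPKM in lumbar and from 1.79 to 3.88 in sacral libraries and was lower in sacral ganglia in 8 of 10 donors. Its difference of -0.48 ± 0.19 (SE, limma) did not pass the threshold (adjusted p = 0.127). Scn3b, which encodes the beta3 subunit of small sensory neurons, ranged from 4.16 to 5.41 in lumbar and from 3.39 to 5.39 in sacral libraries. Its difference of -0.14 ± 0.17 (SE) had a 95% interval of -0.50 to 0.21 and an adjusted p of 0.634.

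The serine-codon genes had differences of equal size. Scn10a ranged from 5.05 to 6.44 log2 RPKM with a median of 5.90 in lumbar and from 4.08 to 6.34 with a median of 5.68 in sacral libraries. Scn11a ranged from 3.85 to 5.26 with a median of 4.71 in lumbar and from 2.64 to 5.25 with a median of 4.45 in sacral libraries. Both were lower in sacral ganglia in 8 of 10 donors, with wide overlap of the levels. The differences were -0.31 ± 0.17 (SE, limma) for Scn10a, with an adjusted p of 0.276, and -0.31 ± 0.19 for Scn11a, with an adjusted p of 0.337.

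Scn9a encodes Nav1.7, the channel whose loss abolishes pain in people. Its levels ran from 4.23 to 5.87 log2 RPKM in lumbar and from 3.52 to 6.14 in sacral libraries. The difference was -0.09 ± 0.16 (SE, limma), with a 95% interval of -0.43 to 0.24 and an adjusted p of 0.745. Scn3a encodes Nav1.3, a channel of the embryonic nervous system, and ranged from 1.05 to 2.06 in lumbar and from 0.86 to 2.40 in sacral libraries. It was the 1 member with a positive difference, 0.05 ± 0.12 (SE), with a 95% interval of -0.21 to 0.31 and an adjusted p of 0.839, and its sign turned under other settings (-0.04 without donor F8). A change of more than 0.43 on the log2 scale lay outside the intervals of both genes. Over the 9 members the median difference was -0.31, against -0.05 over all genes tested. Such a median was not particular to the members. It was -0.28 for the pan-neuronal, -0.21 for the nociceptor and -0.34 for the Schwann cell and satellite glia markers. For the genes of sodium channel partners described below it was -0.29, whereas it was 0.35 for the fibroblast and meninges markers.

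**Figure D2:**
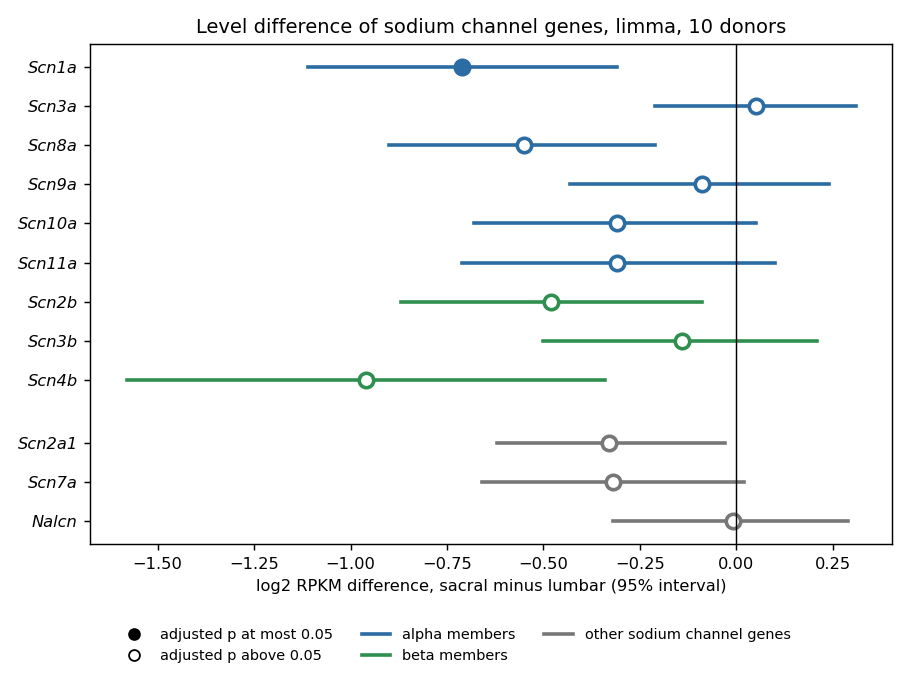
Log2 RPKM difference, sacral minus lumbar, of the 9 members and of Scn2a1, Scn7a and Nalcn, with 95% intervals from limma on 10 donors. The filled point marks an adjusted p of at most 0.05, which Scn1a reached at -0.71.

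The proportions among the alpha genes do not depend on how a library was scaled, and those of Scn1a and Scn9a shifted in 1 direction in all 10 donors. Each gene's share in the summed RPKM of the 6 alpha genes was taken within a library. Scn1a made up 4.53% ± 0.43 (SD, n = 10) of the sum in lumbar and 3.36% ± 0.55 in sacral libraries, and its share was lower in the sacral library in 10 of 10 donors, donor F8 included. Scn8a went from 5.87% ± 0.65 to 4.85% ± 0.77 and was lower in 9 of 10 donors. Scn9a rose as a share from 26.24% ± 3.49 to 29.57% ± 3.43, higher in 10 of 10 donors, and Scn3a from 2.25% ± 0.34 to 2.84% ± 0.66, higher in 9 of 10. Scn10a held 42.53% ± 1.97 in lumbar and 41.26% ± 2.27 in sacral libraries, and Scn11a 18.58% ± 1.41 and 18.13% ± 1.63. The changes of these latter genes, -1.27 and -0.45 percentage points, were smaller than their SD over donors of 1.90 and 1.52. The shares were not tested, and since they sum to a whole, a lower share of some genes raises that of others.

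The serine-codon genes together held 61.11% ± 3.16 (SD, n = 10) of the alpha RPKM in lumbar and 59.39% ± 3.23 in sacral ganglia. The change of -1.72 percentage points was within the SD of 2.74 over donors, and the share was lower in 7 of 10. The summed alpha RPKM ranged from 77.1 to 209.3 in lumbar and from 40.1 to 210.4 in sacral libraries, while the serine-codon share stayed between 54.33% and 65.0% in all 20.

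**Figure D3:**
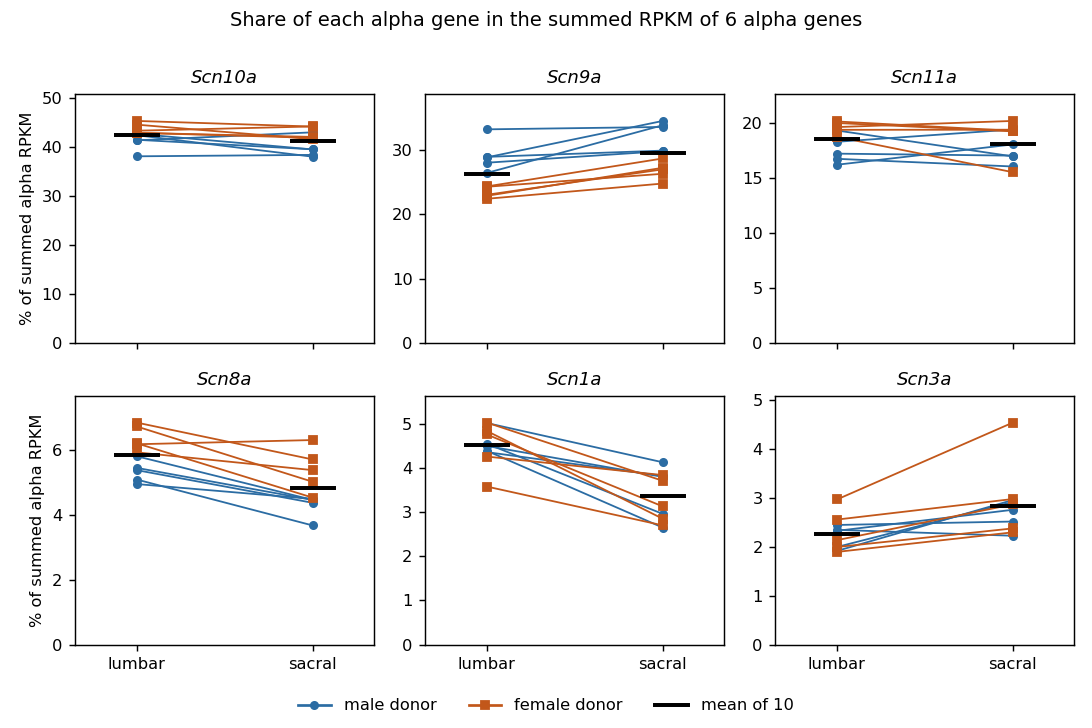
Share of each alpha gene in the summed RPKM of the 6 alpha genes (percent, axes from 0), with the libraries of a donor joined (circles, male; squares, female; bars, mean of 10). The share of Scn1a is lower and that of Scn9a higher in the sacral library of each of the 10 donors.

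Ratios between pairs of members were also taken within each library. This measure was chosen after the values were seen and was not tested. The log2 ratio of Scn1a to Scn10a changed by -0.40 ± 0.25 (SD, n = 10) from lumbar to sacral and was lower in 10 of 10 donors. Of all tested genes, 0.323% had a ratio to Scn10a that was lower in the sacral library in all 10 donors, and Scn1a was the only member among them. The ratio of Scn1a to Scn9a changed by -0.62 ± 0.25 and that to Scn3a by -0.76 ± 0.30, both lower in 10 of 10 donors. The ratio of Scn1a to Scn8a, in contrast, changed by -0.16 ± 0.37 and was lower in 5 of 10, and that of Scn8a to Scn9a by -0.46 ± 0.16, lower in 10 of 10. Scn9a and Scn3a were the members whose levels differed least, by -0.09 and 0.05. The share of all tested genes with a lower ratio in all 10 donors was taken for Scn10a alone.

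Across the 20 libraries the members rose and fell together. The levels share donors, depth and library quality, so the correlations are given as a description. Scn10a and Scn11a were closest, with a Pearson r of log2 RPKM of 0.99, and Scn11a and Scn3b reached 0.96. Scn1a was closest to Scn4b at 0.95, and Scn9a to Scn3a at 0.92. The lowest correlation was 0.61, between Scn3a and Scn4b. For each member the median r over all other tested genes lay between 0.173 and 0.243.

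**Figure D4:**
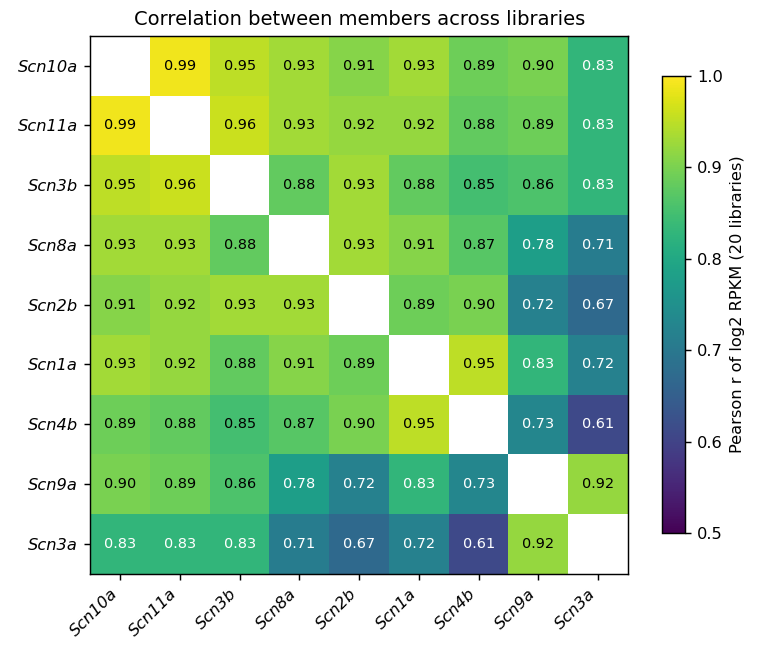
Pearson r of log2 RPKM between members over 20 libraries, on a colour scale from 0.5 to 1. Scn3a and Scn9a correlate with each other at 0.92 and less with Scn8a, Scn2b, Scn1a and Scn4b, where r lies between 0.61 and 0.83.

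The 3 tested genes most like each member were found by the same measure over the 20 libraries. Both levels entered this measure, so a near neighbour tends to share the level difference of its member. Calls among the neighbours are therefore a description and add no separate result. Of all tested genes 6.73% were called between the levels. For Scn1a they were Ndst4 (0.983), Tmeff2 (0.970) and Slc24a2 (0.969), of which Ndst4 and Tmeff2 also passed the threshold for lower levels in sacral ganglia, with differences of -0.70 and -0.62. Those of Scn4b were Cpne6 (0.960), Cbln2 (0.956) and N28178 (0.955), of which Cpne6 at -0.65 and Cbln2 at -0.73 passed it. Those of Scn8a were Mtap1a, Capn5 and Acly, with r of 0.962 to 0.970, of which Capn5 at -0.41 passed it, and those of Scn2b were Ywhag, Nars and Rab6b, with r of 0.966 to 0.969.
Scn10a was nearest to Scn11a (0.989), Sv2c (0.985) and Plxnc1 (0.984), and Scn11a to Scn10a, Plxnc1 (0.987) and Gabbr2 (0.984). The neighbours of Scn9a were Neto2, B3galt1 and Acvr2a at 0.975 to 0.980, those of Scn3a were Pgap1, Stox2 and Zmym2 at 0.942 to 0.951, and those of Scn3b were Syt11, Rtn4rl1 and Aplp1 at 0.991 to 0.995.

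Other sodium channel genes were described beside the members. Scn7a, the gene of a sodium-sensing channel of glia and some neurons, had means of 5.96 in lumbar and 5.64 in sacral ganglia, beside 5.84 and 5.52 for Scn10a. Its difference of -0.32 ± 0.16 did not pass (adjusted p = 0.236, limma). Scn2a1, which encodes Nav1.2, differed by -0.33 ± 0.14 (adjusted p = 0.168), and Nalcn, the sodium leak channel, by -0.01 ± 0.15 (adjusted p = 0.972).

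Scn4a, the channel gene of skeletal muscle, did not pass the filter. Its reads per library ran from 4 to 102. An exact sign-flip permutation test of the 10 within-donor differences (two-sided) gave p = 0.596, with a mean difference of -0.21 ± 1.0 (SD, n = 10).

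Proteins that anchor, deliver or adjust sodium channels were taken as a list of 19 partner genes, of which 18 passed the filter. None was called higher in sacral ganglia, 2 were called lower, and the median difference was -0.29. Fgf12, a fibroblast growth factor homologous factor that binds the channel's cytoplasmic end, fell by 0.63 ± 0.13 (SE) on the log2 scale, with an adjusted p of 0.00821 in limma and a lower value in 10 of 10 donors. Cntnap2, an adhesion protein of the axon beside the node, fell by 0.66 ± 0.18, with an adjusted p of 0.0302 and a lower value in 9 of 10 donors. Ank3, which encodes ankyrin-G, the anchor of the channels at nodes and the initial segment, was lower in 9 of 10 donors by a mean of -0.36 ± 0.54 (SD, n = 10) but was not called. The share of called partners, 2 of 18, stands beside the 6.73% of all tested genes.

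Several lists of cell type markers moved between the levels beside the members. Of all tested genes 6.73% were called, in either direction. Of the 8 markers of large myelinated sensory neurons 4 were called lower in sacral ganglia (limma): Pvalb by -1.33, Nefm by -1.14, Nefh by -0.86 and Etv1 by -0.86 on the log2 scale. Negative differences were found for 6 of these 8 markers. The summed RPKM of that list ranged from 288.1 to 758.3 in lumbar and from 151.7 to 363.6 in sacral libraries. Of the 10 nociceptor markers 9 had negative differences. Among them 1 was called lower, Tac1 by -0.81, and Trpv1 was called higher by 0.70. The sums of the nociceptor list ranged from 269.1 to 498.6 in lumbar and from 156.6 to 441.0 in sacral libraries.
Of the 12 pan-neuronal markers 1 was called lower, Snap25 by -0.60, and all 12 differences were negative with a median of -0.28. Of the Schwann cell and satellite glia markers Fabp7, S100b and Mbp were called lower, and of the 6 fibroblast and meninges markers 3 were called higher (Col1a1, Col1a2 and Pdgfra). Col2a1 of the cartilage list, Cdh5 of the endothelium list and Slc5a7 of the motor neuron list were also called higher. None of the 6 skeletal muscle markers tested was called. The part of any of these cell types in the difference of Scn1a was not tested.

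The share of mitochondrial rRNA moved with the levels of the members. In lumbar ganglia the 3 libraries with a share above 40% were lower than each of the other 7 for all 9 members. Scn10a, for instance, had 5.05 to 5.36 log2 RPKM in those 3 and 5.87 to 6.44 in the others, and Scn1a had 1.54 to 2.08 and 2.59 to 3.19. Of all tested genes 21.6% showed such a gap. In sacral ganglia the 2 libraries above 40% were lower than the other 8 for 7 members, all but Scn3a and Scn9a, and for 19.9% of all tested genes.

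The difference of Scn1a was about as large without these libraries. In the 7 donors whose libraries were both at or below 40%, a comparison added after the values were seen, Scn1a differed by -0.70 (adjusted p = 0.00135, limma), close to -0.71 in all 10 donors. Scn4b differed by -0.93 (adjusted p = 0.00713), Scn8a by -0.65 (adjusted p = 0.0187) and Scn2b by -0.55 (adjusted p = 0.0264), so 4 of 9 members passed the threshold, as did 7.61% of all genes. With the share as a covariate over all 20 libraries these 4 also passed it, as did 8.91% of all genes. The 7 donors leave out F8, the 1 donor in which Scn1a and Scn4b were higher in sacral ganglia. They also leave out F7, in which both genes fell most. With only F8 left out, Scn1a, Scn8a and Scn4b passed the threshold, as did 11% of all genes.

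**Figure D5:**
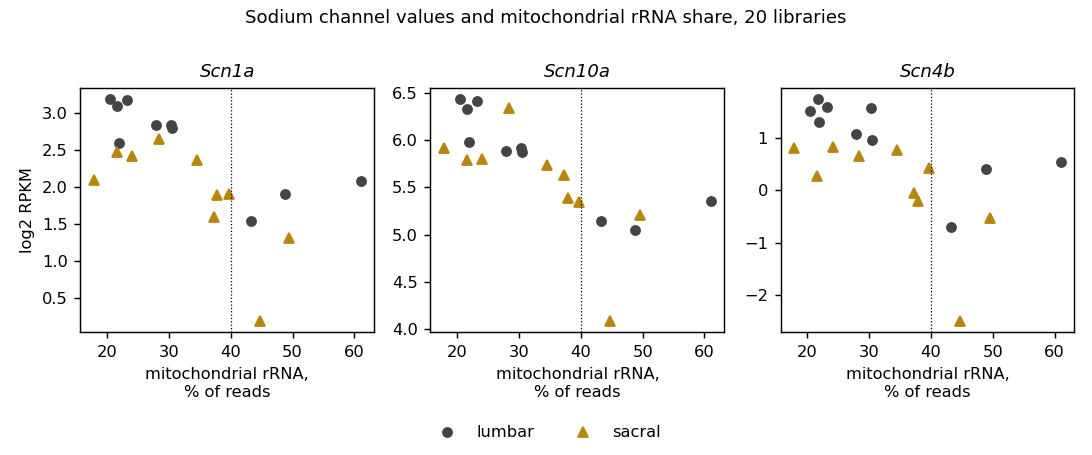
Log2 RPKM of Scn1a, Scn10a and Scn4b against the percentage of reads in the 2 mitochondrial rRNA genes in 20 libraries (circles, lumbar; triangles, sacral; dotted line at 40%). Lumbar libraries right of the line lie below the other lumbar libraries in each panel.

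The second comparison asked whether the level difference was present in each sex. In females all 9 differences were negative, with a median of -0.46, and in males 7 of 9 were, with a median of -0.20. Scn1a differed by -0.87 ± 0.27 (SE, limma) in females, with an adjusted p of 0.119, and by -0.56 ± 0.27 in males, with an adjusted p of 0.429. Scn4b differed by -1.15 ± 0.42 in females and by -0.77 ± 0.42 in males, and Scn8a by -0.64 ± 0.24 and -0.46 ± 0.24. No member passed the threshold in either sex, where 0.881% of all genes did in females and 0.461% in males.

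The difference between the sexes in the level effect was tested directly. It was negative for all 9 members, from -0.39 for Scn2b to -0.17 for Scn3a, and the adjusted p of each was 0.995 (limma). None of the 14529 genes was called (0%), nor by voom on the recovered reads, although 470 genes had an unadjusted p under 0.05. For Scn1a the 95% interval of this difference was -1.11 to 0.49 on the log2 scale.

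The third comparison asked whether the members differed between female and male embryos within a level. The numbers that end the library labels form separate runs for males and females. What these numbers stand for is not given, so sex cannot be told apart from it. No member was called in lumbar or in sacral ganglia (limma), where 0.33% and 1.01% of all genes were. Scn9a had the lowest p of the members at both levels. In lumbar ganglia it had 5.36, 5.65, 4.79, 5.67 and 5.87 log2 RPKM in the males and 5.40, 4.23, 4.30, 5.01 and 5.02 in the females. In sacral ganglia it had 5.28, 5.62, 5.02, 6.14 and 5.33 in the males and 5.09, 3.52, 4.88, 4.73 and 4.76 in the females. The sexes overlapped at both levels, in sacral ganglia only through male donor M5 and female donor F3. In lumbar ganglia F3, F9 and F10 exceeded M5, and F3 also exceeded M1. The female minus male difference was -0.68 ± 0.28 (SE) in lumbar ganglia, with an adjusted p of 0.498, and -0.88 ± 0.28 in sacral ganglia, with an adjusted p of 0.131. In lumbar ganglia 8 of 9 members were lower in females, all but Scn2b, and in sacral ganglia all 9 were, with medians of -0.28 and -0.50. Over all genes tested the medians were 0.02 and -0.03. The members rose and fell together across libraries, so these counts are not independent. Mitochondrial rRNA took 24.08%, 21.55%, 49.49%, 28.4% and 34.51% of the reads in the sacral males. In the sacral females it took 17.83%, 44.73%, 37.27%, 39.68% and 37.85%. Its part in the sex differences was not tested.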

How the data were processed

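The members and gene lists were chosen with earlier results of these data known. RNA of whole DRG was amplified from total RNA, tagged with transposase and sequenced by the authors, who aligned reads to mm9 with Subread (1.18 and 1.20.6 in the submitters' processing notes) and counted uniquely mapped reads per Ensembl gene. The authors describe the values as log2 RPKM after TMM scaling and the voom method. In the deposited values all 20 libraries had the same median, 0.930302 log2 RPKM over the genes with a value. The level differences are thus relative to that common median, and the step that set it is not described. Groups, sexes and donors came from the sample labels, and each column matched 1 sample. With GENCODE M1 exon lengths, 98.27% of the values came out within 0.05 of whole reads. For Scn3b the annotated length of 4606 gave none, and 5546 was used to recover reads. Blanks were set to 0.5 reads. Reads are given with counting error only in mind, since the libraries were amplified without molecular identifiers.

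Differences were tested with limma 3.58.1 (R 4.3.3) on the log2 RPKM of all 20 libraries, with a mean for each of 4 groups, donor as a block through duplicateCorrelation (correlation 0.342) and eBayes with a trend, no pseudocount added. Two-sided p-values were adjusted after Benjamini and Hochberg over 14529 genes, threshold 0.05. These had a group mean of 1 RPKM or more, taken on the log2 scale. The pairing rests on the embryo code shared by 2 libraries. Deviations of paired libraries from their group means correlated between -0.17 and 0.68. All members, other sodium channel genes, called partners and markers, and the 3 genes nearest to each member are named, and any other gene was chosen after its values were seen, such as Ank3. Alternatives changed the block, pseudocount, filter, scaling, weights, covariate and donors. Sequences came from GENCODE M1. Some genes and a sequence are not reported here.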

Additional observations from a re-analysis of the deposited data

Results flagged for a closer look

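In each of the 4 groups of 5 libraries the values of the 9 members were searched for a sample far from the others by Dixon's ratio (above 0.71), which chance exceeds in about 1 in 20 groups. Of the 36 groups of values, 5 held such a sample, and each was a sacral library of donor M5 or F7, whose mitochondrial rRNA shares were 49.49% and 44.73%. In sacral males donor M5 stood apart for Scn1a, at 1.31 log2 RPKM against 2.37 to 2.64 in the others, and for Scn2b, at 2.62 against 3.38 to 3.65. In sacral females donor F7 stood apart for Scn1a, at 0.19 against 1.59 to 2.10, for Scn9a, at 3.52 against 4.73 to 5.09, and for Scn11a, at 2.64 against 4.24 to 4.79. The part of the mitochondrial rRNA share in these values was not tested.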

How the results depend on the processing

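The level differences of 8 members and of Scn2a1, Scn7a, Fgf12 and Cntnap2 kept their direction under all 23 alternatives, but the calls moved. Scn1a was called under 14 of them, with differences of -0.83 to -0.57 and adjusted p of 0.00116 to 0.178, Scn8a under 9, Scn4b under 7, Scn2b under 4 and Scn10a under 1. Fgf12 was called under 22 and Cntnap2 under 14. The number of members called, 1 as reported, was 0 without the replicate block and 0 without a filter, 2 with log2(RPKM + 0.1) and with scaling to reads outside mitochondrial rRNA, 3 with the block as a fixed term, with log2(RPKM + 1) and with voom, 4 with the rRNA share as a covariate and in the 7 donors at or below 40%, and 5 with array weights. It ranged from 0 to 3 when 1 donor was left out, the 3 being without F8. The number of all genes called, 978 as reported, was 154 without the replicate block, 509 without a filter and 2998 with array weights, and ranged from 400 (without F10) to 1594 (without F8). It was 600 without M1, 487 without M5, 562 without F3 and 509 without F7. Of the called genes 59.9% were lower in sacral ganglia as reported and 41.0% with scaling to reads outside mitochondrial rRNA.

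In females 4 members were called with array weights, when 12.9% of all genes were, 2 in the 7 donors, when 2.25% were, and 0 to 2 with 1 donor left out (2 without F8, when 5.03% were). Between the sexes in sacral ganglia 1 member, Scn9a, was called with array weights, when 5.17% of all genes were, and 1, again Scn9a, with the covariate, when 4.85% were. Scn3a turned sign to -0.0012 with array weights, -0.03 in the 7 donors and -0.04 without F8, and was at most 0.09 without another donor (M1). Nalcn turned to 0.05 with scaling to reads outside mitochondrial rRNA, 0.01 with upper-quartile scaling and with the covariate, and without M3, M8, F3, F7 or F9 to 0.01, 0.06, 0.0034, 0.0014 and 0.02, and the lowest value with 1 donor left out was -0.08, without F8. The cause of the lost calls was not tested. Scn4b had the fewest reads of the members, down to 20 in sacral F7. The annotation of Scn8a is split, and its small identifier did not pass the filter.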
